A study of Mus musculus with 8 samples.

Results

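Surfactant is the film of phospholipid and protein that lowers surface tension in the alveoli and keeps them from collapsing. Its 4 proteins were described here in club cells of mice with and without adipose triglyceride lipase. The members were the genes Sftpa1, Sftpb, Sftpc and Sftpd, taken by symbol from probe sets annotated with 1 gene. Each had 1 such probe set, and all 4 of 22180 measured genes were among the 13112 whose mean log2 signal lay above the median of all probe sets (5.18) and were tested.

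Atgl is the older name of Pnpla2, the gene of the lipase that starts the breakdown of stored triglyceride. The groups were Atgl KO/cTg (mice without Atgl that carry cTg) and wt/cTg (mice with Atgl that also carry cTg), so cTg is shared by both groups, and the labels do not expand it. Club cells are secretory cells that line the airways. There were 4 arrays per genotype, and each held club cell RNA pooled from 3 or 4 untreated chow-fed mice aged 38 to 48 weeks. The pools held 16 mice without Atgl and 14 controls. A replicate is therefore a pool of animals, the spread given is a spread between pools, and the p-values measure no other. The labels describe no sort of the isolated cells, and the RNA of each pool is a bulk sample.

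The surfactant proteins fall into 2 kinds. SP-B and SP-C, encoded by Sftpb and Sftpc, are very hydrophobic peptides that are cut from larger precursors, stored with phospholipid in lamellar bodies and speed the spreading of the film. SP-A and SP-D, encoded by Sftpa1 and Sftpd, are large water-soluble collectins, lectins with a collagen-like tail that bind microbes and help their uptake by macrophages. Alveolar type 2 cells make all of them. Sftpc is the member known to be restricted to type 2 cells in the adult lung, whereas mouse club cells are known to transcribe Sftpa1, Sftpb and Sftpd as well.

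Pnpla2 read 6.70 to 7.16 in the Atgl KO/cTg pools and 8.62 to 8.86 in the wt/cTg pools (log2 difference -1.72, SE 0.11, limma adjusted p = 0.000116). Array medians lay between 5.12 and 5.24 and array maxima between 13.38 and 13.54. The club cell markers Scgb1a1, the main club cell secretory protein, and Cyp2f2, a club cell cytochrome P450, were bright. Scgb1a1 read 12.79 to 13.03 over all 8 pools and Cyp2f2 read 12.52 to 12.70. Other club cell markers, among them Upk3a and Cldn10, read lower, and type 2-restricted Sftpc read 12.50 to 13.03. Levels of different probe sets are not comparable, so these levels do not test the club cell label. One pool stood apart in Xist, which coats the silenced X: its signal was 3.75 in wt/cTg replicate 4, against 9.34 to 10.67 elsewhere. The mean of the Y-linked genes Uty, Kdm5d and Eif2s3y was 6.99 in that pool. It was 5.68 to 6.33 in the Atgl KO/cTg pools and 5.16 to 5.56 in the remaining wt/cTg pools. With that pool left out, the Y-linked mean thus did not overlap between the genotypes. Xist did overlap (9.34 to 10.49 in Atgl KO/cTg against 10.30 to 10.67 in the remaining wt/cTg pools), and so did Uty taken singly. The pool wt/cTg replicate 4 also had the highest Sftpa1, Sftpb and Sftpc signals, so values without it are given beside each of these genes.

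Sftpc was lower in every pool of Atgl KO/cTg than in any pool of wt/cTg, Sftpb was lower by a smaller margin that did not pass over all genes, and for Sftpa1 and Sftpd the groups overlapped. Of the 4 members 1 passed limma at an adjusted p under 0.05, against 0.0991% of all tested genes in either direction (0.0839% lower, 0.0153% higher). Groups did not overlap for 2 of the 4, both lower in Atgl KO/cTg, against 4.35% of all tested genes (2.62% lower, 1.74% higher). Among tested genes at the level of Sftpc (a mean of 12 to 13) that share was 9.84% in either direction. At the level of Sftpb (11 to 12) it was 7.64%. The same 2 members had an unadjusted limma p under 0.05, against 7.95% of all tested genes (4.56% lower). All 4 differences lay below 0 (median -0.17), although that of Sftpd turned positive under quantile normalization, and 52.2% of all tested genes lay below 0 with a median of -0.0073.

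Sftpc encodes the precursor of SP-C, the smallest of the surfactant proteins. Its log2 signal was 12.57, 12.50, 12.51 and 12.53 in the Atgl KO/cTg pools and 12.78, 12.94, 12.98 and 13.03 in the wt/cTg pools. The Atgl KO/cTg pools lay close together, and the highest of them was 0.21 below the lowest wt/cTg pool. Sftpc fell by 0.41 on the log2 scale (SE 0.06, 95% interval -0.54 to -0.28, exact permutation p = 0.0286, the lowest value that 70 arrangements allow, limma adjusted p = 0.0461), a signal of 0.755 of the control (interval 0.69 to 0.825). By p it ranked 7 among the 13112 tested genes.

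The size of the Sftpc difference moved little, but its call depended on single pools and on the model. With each pool left out in turn the difference ran from -0.46 to -0.37. The limma adjusted p stayed under 0.05 when Atgl KO/cTg replicate 2 was left out, and also when wt/cTg replicate 1 was. It missed 0.05 without any of the other 6 pools, reaching 0.211 without Atgl KO/cTg replicate 1. Without wt/cTg replicate 4 the difference was -0.37 (limma adjusted p = 0.147). The call was also lost with pools of neighbouring mouse numbers as a block (-0.38, limma adjusted p = 0.185), with mice per pool (0.222) or age (0.0544) as a covariate, without the variance trend (0.221) and after quantile normalization (0.0773).

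Sftpb encodes the precursor of SP-B, a protein without which lamellar bodies do not form and newborn animals cannot breathe. Its log2 signal was 11.87, 11.89, 11.86 and 11.92 in Atgl KO/cTg and 11.95, 12.16, 12.06 and 12.22 in wt/cTg. No pool overlapped, but the gap between the groups was only 0.03. The difference was -0.21 on the log2 scale (SE 0.06, interval -0.35 to -0.07), with an exact permutation p of 0.0286, the smallest possible, and a limma adjusted p of 0.435, so it did not pass over all genes. The difference was -0.17 without wt/cTg replicate 4.

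Sftpa1 encodes SP-A, the more abundant of the surfactant collectins. It read 12.10, 12.04, 11.94 and 12.11 in Atgl KO/cTg and 12.02, 12.27, 12.14 and 12.28 in wt/cTg. The groups overlapped, since wt/cTg replicate 1 lay below 3 of the 4 Atgl KO/cTg pools. The difference was -0.13 on the log2 scale (SE 0.07, interval -0.29 to 0.02, exact permutation p = 0.143, limma adjusted p = 0.679) and -0.10 without wt/cTg replicate 4.

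Sftpd encodes SP-D, the collectin that also limits surfactant pools in the airspace. It read 10.20, 10.33, 9.83 and 10.13 in Atgl KO/cTg and 10.09, 10.11, 10.27 and 10.07 in wt/cTg. Both the lowest and the highest pool were Atgl KO/cTg pools, replicate 3 and replicate 2. The difference between group means was -0.01 on the log2 scale (SE 0.10, exact permutation p = 0.943, limma adjusted p = 0.989). Its sign turned under 3 other settings, and when replicate 3 of either genotype was left out. The interval, -0.23 to 0.21, holds signals of 0.851 to 1.16 times the control, so a change as large as that of Sftpb is not excluded, whereas one as large as that of Sftpc lies outside it.

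**Figure D1:**
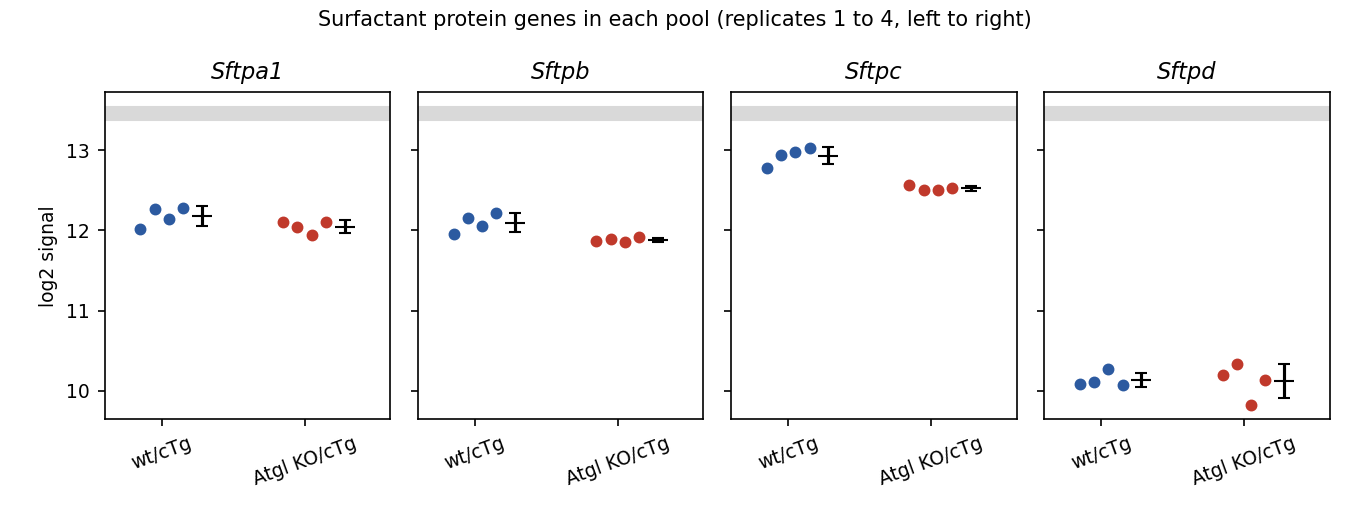
Log2 signal (y axis) of each surfactant protein gene in the 4 wt/cTg pools (blue) and the 4 Atgl KO/cTg pools (red). Points are pools, black marks give the mean and SD, and the grey band spans the array maxima (13.38 to 13.54). The Sftpc groups are 0.21 apart, the Sftpb groups 0.03 apart, and the Sftpa1 and Sftpd groups overlap.

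The question of whether type 2-restricted Sftpc changed by more than the members that club cells also make was addressed on each array, where the log2 signal of one gene was subtracted from that of another. Only the change of this difference between genotypes carries meaning, because levels of different probe sets are not comparable. All 6 pairs of members were compared, by exact two-sided permutation over the 70 arrangements with Benjamini-Hochberg adjustment over the 6 pairs.

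Sftpc was lower relative to each of the other members in Atgl KO/cTg, with no overlap between the groups in any of the 3 pairs. Sftpc minus Sftpa1 read 0.47, 0.46, 0.58 and 0.42 in Atgl KO/cTg and 0.76, 0.67, 0.84 and 0.75 in wt/cTg, a change of -0.27 (SE 0.05, 95% interval -0.39 to -0.16). Sftpc minus Sftpb read 0.70, 0.61, 0.65 and 0.61 against 0.83, 0.78, 0.92 and 0.81, a change of -0.19 (SE 0.04, interval -0.29 to -0.10). Sftpd minus Sftpc rose from -2.80 ± 0.12 to -2.41 ± 0.21 (SD, n = 4 pools), a change of 0.39 (SE 0.12, interval 0.10 to 0.69). Each of the 3 had an exact permutation p of 0.0286, the smallest possible, and an adjusted p of 0.0571, which does not pass 0.05. With only 3 of the 6 pairs at the smallest possible p, the adjusted value could not be lower, whatever the size of the change.

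The 3 pairs without Sftpc had overlapping groups and did not pass either. Sftpb minus Sftpa1 changed by -0.08 (interval -0.16 to 0.00, exact permutation p = 0.0857, adjusted 0.129). Sftpd minus Sftpa1 changed by 0.12 (-0.16 to 0.40, exact permutation p = 0.343) and Sftpd minus Sftpb by 0.20 (-0.12 to 0.51, exact permutation p = 0.143, adjusted 0.171). Without Atgl KO/cTg replicate 3, the pool with the lowest Sftpd, Sftpb minus Sftpa1 and the 3 pairs with Sftpc had an adjusted exact permutation p of 0.0429. The adjusted value was lower there because Sftpb minus Sftpa1 then also reached the smallest possible p. Array-wide scaling cancels in the within-array differences, so they hold whatever centre the arrays are given.

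**Figure D2:**
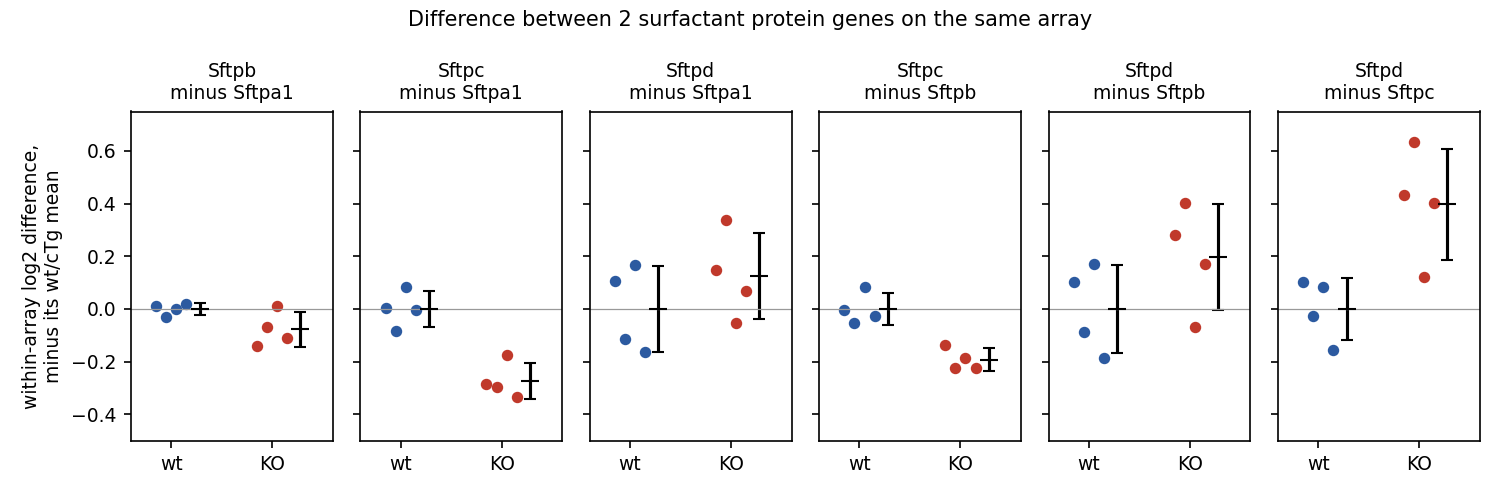
Within-array log2 difference between 2 members (y axis), minus its mean in wt/cTg, in the wt/cTg pools (wt, blue) and the Atgl KO/cTg pools (KO, red), with mean and SD in black. The 3 pairs that hold Sftpc have groups that do not overlap, with changes of -0.27, -0.19 and 0.39, and the other 3 pairs overlap.

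Sftpc lay near the top of the signal scale. It was 0.40 to 0.59 below the array maximum in wt/cTg and 0.84 to 1.03 below it in Atgl KO/cTg. Between 9 and 22 of the 41345 probe sets were brighter than Sftpc on the wt/cTg arrays and 52 to 65 on the Atgl KO/cTg arrays, a rank that does not depend on the scale. Sftpa1 and Sftpb lay 1.12 to 1.64 below the maximum and Sftpd 3.15 to 3.66 below it.

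Large differences between genotypes were less common at the level of Sftpc, but not at that of Sftpd. Among the 61 tested genes with a mean of 12 to 13 the median absolute log2 difference between genotypes was 0.0705 and the 95th percentile 0.179. Among the 430 genes with a mean of 10 to 11, where Sftpd lies, these were 0.0821 and 0.397, and among the 2605 genes with a mean under 6 they were 0.106 and 0.367. The median SD between pools was 0.198 under 6, 0.115 at 10 to 11 and 0.0789 at 12 to 13. In the interval of Sftpc 2 genes differed by more, the immunoglobulin genes Ighm (0.46) and Igkv5-43 (0.42), both named after their values were seen and neither past the limma threshold. Whether compression at the top of the scale made the Sftpc, Sftpb and Sftpa1 differences smaller was not tested.

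**Figure D3:**
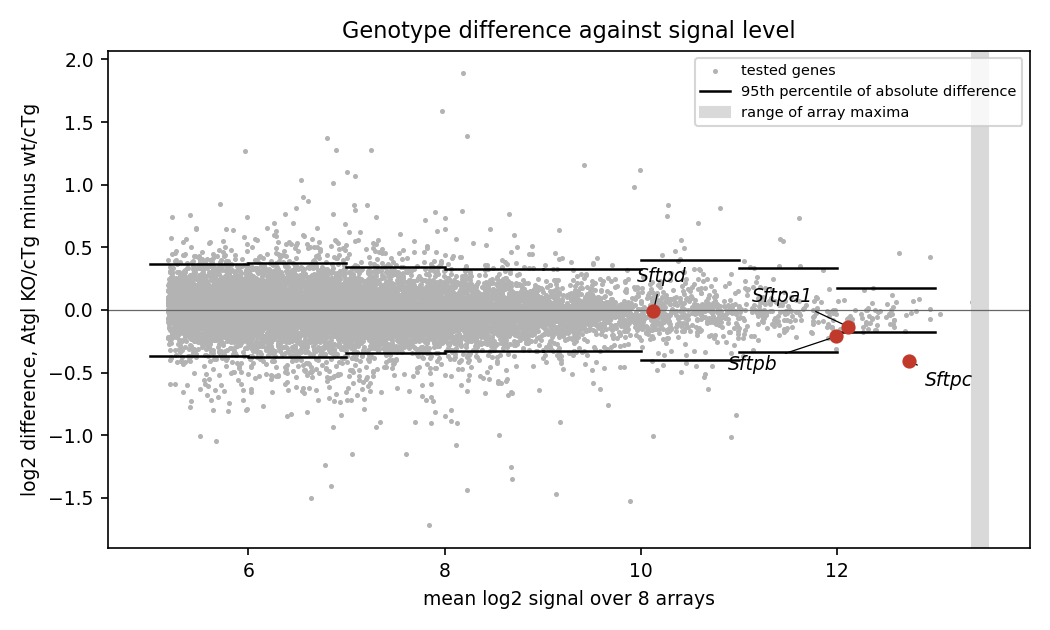
Log2 difference between genotypes (y axis) against mean log2 signal over 8 arrays (x axis) for the 13112 tested genes (grey) and the 4 members (red). Black lines mark the 95th percentile of the absolute difference in each 1-unit interval with 20 or more genes, which is 0.397 at 10 to 11 and 0.179 at 12 to 13, and the grey band spans the array maxima. Sftpc (-0.41) lies outside the line of its interval and Sftpd (-0.01) near 0.

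Markers of type 2 cells other than the surfactant proteins were lower in Atgl KO/cTg too. This list, too, was chosen with earlier results of these data known, so its counts are a description. All 12 were above the level filter and had a difference below 0, with a median of -0.80. The groups did not overlap for 7 of 12, against 4.35% of all tested genes. Over all genes 4 of 12 passed, against 0.0991% of all tested genes. These were Lamp3, a membrane protein of lamellar bodies (-1.53), Hc, complement C5 (-1.47), Etv5, a transcription factor (-1.01), and Slc34a2, a phosphate transporter (-1.01), with limma adjusted p of 0.0294, 0.0286, 0.0294 and 0.0477. Like Sftpc, each of the 4 kept its call when Atgl KO/cTg replicate 2 was left out, or when wt/cTg replicate 1 was, and lost it without any other pool (limma adjusted p of up to 0.226). The mean log2 signal of the 12 markers was 9.50 to 9.79 in the Atgl KO/cTg pools and 10.01 to 10.62 in the wt/cTg pools. Thus the restricted Sftpc and the type 2 markers both separated the genotypes, and wt/cTg replicate 1 was the lowest control pool for both. Sftpc is 1 of the genes by which type 2 cells are known, and in bulk RNA fewer type 2 cells and less RNA per type 2 cell cannot be told apart.

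Club cell markers lay mostly on the other side of 0. Of 11 markers, all above the level filter, 9 lay above 0 and 2 below (median 0.09), and none passed limma (adjusted p of 0.337 or more). Of all tested genes 52.2% lay below 0, and their median absolute log2 difference was 0.0945. An unadjusted limma p under 0.05 was seen for 3 of 11, against 7.95% of all tested genes. Cckar (0.41) and Gabrp (0.34) had the largest differences of the list, which was chosen with earlier results of these data known. The mean log2 signal of the list was 10.90 to 11.07 in Atgl KO/cTg and 10.81 to 10.96 in wt/cTg. Scgb1a1 had a difference of -0.07 and Cyp2f2 of 0.06, but both also lie near the array maximum. With the mean of its 2 probe sets in place of the brighter one, Cyp2f2 was at 0.23 (limma adjusted p = 0.434). How much of the Sftpa1, Sftpb and Sftpd signal came from club cells and how much from type 2 cells was not tested.

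Markers of other cell types were present as well. Leukocyte, endothelial, type 1 and ciliated lists had median differences of -0.08 (7 markers), -0.33 (5), -0.16 (7) and 0.24 (5). The goblet list had 0.57 (4 markers) and the fibroblast and smooth muscle list -0.48 (6), and the genotypes' ranges of mean signal overlapped for these 6 lists. The heart muscle list, 5 genes that the muscle around pulmonary veins also makes, read 6.84 to 6.99 in Atgl KO/cTg and 7.43 to 7.58 in wt/cTg. Of the 5, 4 lay below 0, and Nppa lay above (0.08) with overlapping groups. The members Actc1 (-0.93) and Tnnt2 (-0.90) fell (limma adjusted p = 0.0477 for both), 2 of 5 against 0.0991% of all tested genes. The call of Actc1 was lost without any 1 pool, and that of Tnnt2 without any pool but Atgl KO/cTg replicate 3. No other marker of these 7 lists passed, and every marker lay above the level filter. Their part in the surfactant protein differences was not tested.

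**Figure D4:**
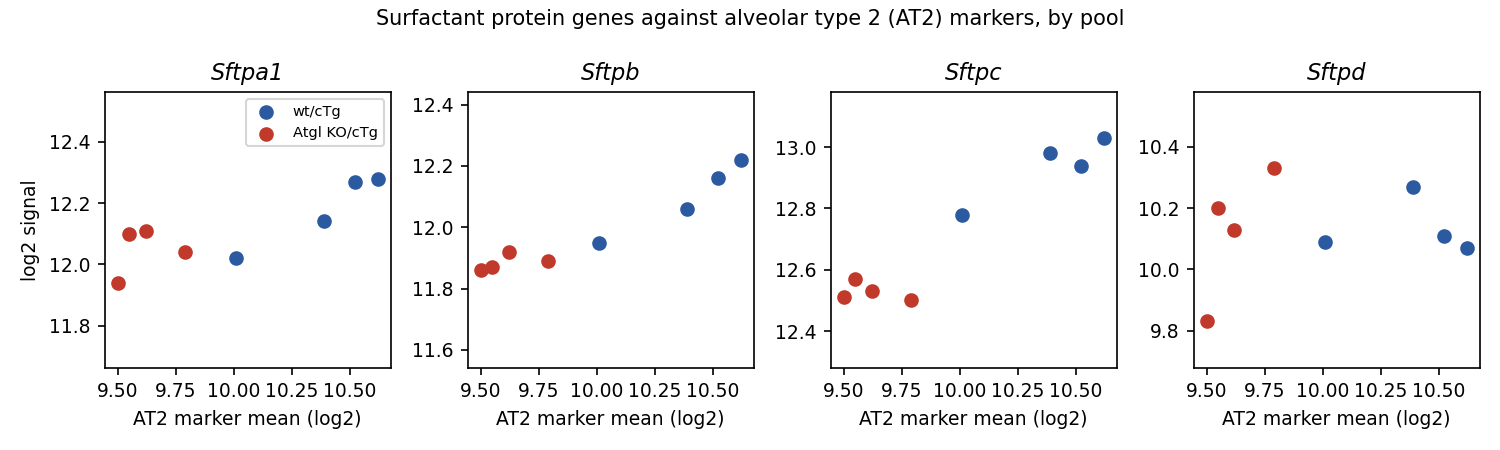
Log2 signal of each surfactant protein gene (y axis, each panel spanning 0.90) against the mean log2 signal of 12 alveolar type 2 markers (x axis) in the wt/cTg pools (blue) and Atgl KO/cTg pools (red). Both axes separate the genotypes for Sftpc and Sftpb, and only the marker axis does for Sftpa1 and Sftpd.

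Of the genes that process and store the surfactant proteins, 1 fell and none rose. Of 13 genes in the list 12 were tested, Lamp3, Napsa and Abca3 also being type 2 markers. Of these 12, 10 lay below 0 (median -0.14), against 52.2% of all tested genes. Lamp3 was the 1 of 12 that passed, against 0.0991% of all tested genes. Lamp3 read 8.91, 9.63, 8.85 and 9.10 in Atgl KO/cTg and 10.12, 10.87, 10.61 and 11.00 in wt/cTg. Napsa, the protease napsin A that trims the SP-B and SP-C precursors, read 8.99, 9.59, 9.36 and 9.21 against 9.74, 10.15, 10.09 and 10.22. Its groups did not overlap, but its difference of -0.76 did not pass (limma adjusted p = 0.0973). Lamp3 and Napsa were the 2 of 12 whose groups did not overlap, against 4.35% of all tested genes.

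The other processing genes differed by less. Abca3, the transporter that loads lipid into lamellar bodies, was at -0.36 (limma adjusted p = 0.435) and Ctsh, a cathepsin that also trims the SP-B precursor, at -0.20 (0.614). The chaperones of the secretory path, Hspa5, Canx, Dnajb9 and Dnajc3, lay between -0.17 and -0.02. Pgc, a pepsinogen known to cut the SP-B precursor, was below the level filter.

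Among 17 transcription factors known to act on surfactant protein genes, 1 fell and none rose, against 0.0991% of all tested genes that passed. The 1 was Etv5, which is also a type 2 marker. The list had 11 differences below 0 and 6 above (median -0.02), against 52.2% of all tested genes below 0. Etv5 read 9.58, 9.74, 9.56 and 9.61 in Atgl KO/cTg and 10.21, 10.87, 10.59 and 10.87 in wt/cTg. Nkx2-1, the homeodomain factor that drives all 4 members, read 8.47 to 8.58 against 8.35 to 8.74 (difference -0.01, interval -0.22 to 0.20). Foxa1, a forkhead factor of airway and type 2 cells, was at 0.32 (limma adjusted p = 0.524), Klf5, a zinc finger factor, at 0.19 (0.66) and Nr3c1, the glucocorticoid receptor, at -0.20 (0.615). None of these 3 passed, and Etv5 differed by more than any other factor in the list.

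The promoters of Sftpb and Sftpa1 are shown because they were the only members with an entry among the start sites used. Of the 4 members 2 matched the RefSeq table of start sites (GRCm38.p6), and the 250 bases before the start are given 5′ to 3′ on the plus strand, chr6:72304360-72304609 for Sftpb and chr14:41131538-41131787 for Sftpa1. Capitals mark exact matches on either strand. The letters searched were CTCAAG, a core bound by NKX2-1, the forkhead letters TGTTTAC with their variant TGTTTGC, the C/EBP letters TTGCAAT, the ETS letters CCGGAAG, the AP-1 letters TGANTCA and the TATA box letters TATAAA.
Sftpb: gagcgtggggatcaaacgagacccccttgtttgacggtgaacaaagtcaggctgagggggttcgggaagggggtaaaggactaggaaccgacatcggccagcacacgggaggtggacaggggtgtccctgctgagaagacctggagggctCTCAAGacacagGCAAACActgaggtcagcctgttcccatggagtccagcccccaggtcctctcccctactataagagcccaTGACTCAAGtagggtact
Sftpa1: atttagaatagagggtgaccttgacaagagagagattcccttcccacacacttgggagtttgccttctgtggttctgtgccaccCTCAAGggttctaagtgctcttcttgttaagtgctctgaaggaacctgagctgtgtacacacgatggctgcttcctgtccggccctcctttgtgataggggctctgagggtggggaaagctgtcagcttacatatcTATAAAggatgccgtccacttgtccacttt

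The Sftpb promoter held CTCAAG at 100 and at 15 bases before the start, a forkhead match on the minus strand at 88 bases, and an AP-1 match at 18 bases that overlaps the second CTCAAG. The Sftpa1 promoter held CTCAAG at 166 bases and a TATA box at 30 bases. Among 32851 RefSeq promoters of this length, 13.3% held CTCAAG, 0.998% held it at least 2 times, 7.29% held a forkhead match, 6.75% an AP-1 match and 12.4% the TATA letters. The C/EBP letters (1.96% of promoters) and the ETS letters (6.91%) were in neither window. A match describes the letters and not binding.

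Relatives of the members by protein family gave no call. With members included, 1 of the 5 tested collectins and ficolins had an unadjusted limma p under 0.05, against 7.95% of all tested genes. Besides Sftpa1 and Sftpd, 3 of 7 others were above the level filter and none passed limma. They were Colec12, a scavenger receptor collectin (-0.36, limma adjusted p = 0.524), Fcna, a macrophage ficolin (0.63, 0.753), and Colec11, a soluble collectin (0.25, 0.805). Mbl1, the collectin gene between Sftpa1 and Sftpd on chromosome 14, was below the filter. SP-B has a saposin domain, and its relatives Psap, the lysosomal saposin precursor, Smpd1, acid sphingomyelinase, and Aoah, which inactivates endotoxin, lay between 0.00 and 0.05, with signs that turned in other settings. The SP-C precursor has a BRICOS domain, shared with Itm2a (-0.27), Itm2b (-0.08) and Itm2c (0.03, with a sign that turned when either of 2 pools was left out), and none of these passed limma.

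Receptors and clearance genes gave no call in limma, with 2 of 15 at an unadjusted p under 0.05, against 7.95% of all tested genes. Of the 15 tested genes 10 lay above 0 and 5 below (median 0.02), against 52.2% of all tested genes below 0. Adgrf5, the receptor on type 2 and endothelial cells that holds surfactant pools in check, read 9.16, 8.93, 9.47 and 9.47 in Atgl KO/cTg and 9.61, 9.59, 9.64 and 10.13 in wt/cTg. Its groups did not overlap, and the difference of -0.48 did not pass (limma adjusted p = 0.446). It was the 1 of 15 without overlap, against 4.35% of all tested genes. The receptor chains for GM-CSF, the cytokine that macrophages need to break surfactant down, were at 0.35 (Csf2rb2), 0.25 (Csf2rb) and 0.25 (Csf2ra), with limma adjusted p of 0.60 to 0.682.

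Of 10 tested lung proteins secreted beside the surfactant proteins none passed limma, with 7 below 0 and 3 above (median -0.08). Of all tested genes 52.2% lay below 0. An unadjusted limma p under 0.05 was seen for 4 of 10, against 7.95% of all tested genes. Sfta2, a small secreted protein known as surfactant-associated, was at -0.44 (limma adjusted p = 0.398), Lyz1, a lysozyme that mouse type 2 cells make, at -0.49 (0.524), and Cxcl15, a lung epithelial chemokine, at -0.31 (0.399). Scgb3a1, an airway secretoglobin, was at 0.16 (0.547) and was the 1 gene of this list whose groups did not overlap, the Atgl KO/cTg pools being higher. That share of 1 in 10 stands against 4.35% of all tested genes. It was 9.84% among tested genes at the level of Scgb3a1 (a mean of 12 to 13).

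**Figure D5:**
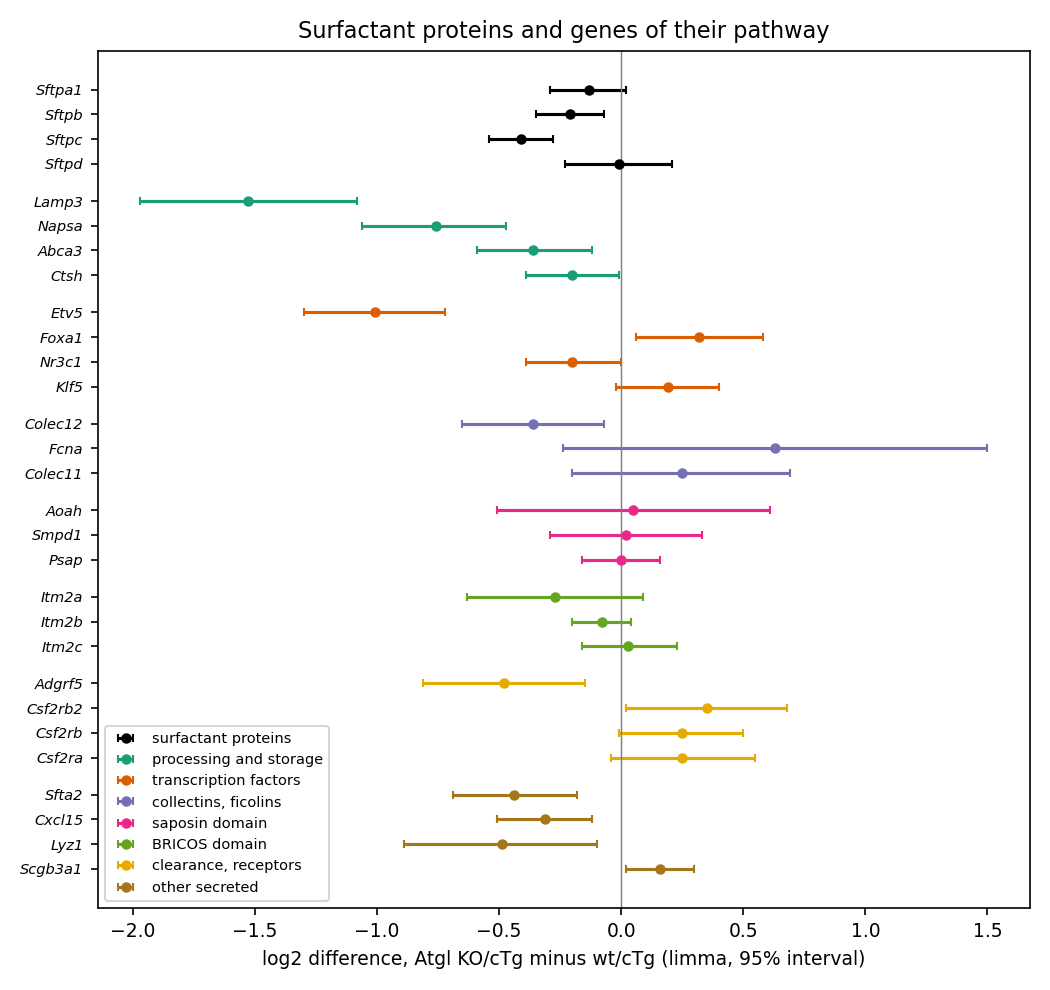
Log2 difference between genotypes with its 95% interval from limma (x axis) for the 4 surfactant proteins (black) and the genes named from each pathway list (colours). Lamp3 (-1.53), Etv5 (-1.01) and Sftpc (-0.41) are the genes shown that passed over all tested genes.

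Across the 8 arrays Sftpa1, Sftpb and Sftpc varied together and Sftpd did not vary with them. Pearson correlations over the 8 arrays, given as a description of arrays that share genotype and cell makeup, were 0.90 for Sftpa1 and Sftpb, 0.92 for Sftpb and Sftpc and 0.76 for Sftpa1 and Sftpc. With each genotype's mean removed they were 0.89, 0.80 and 0.75. Those of Sftpd with Sftpa1, Sftpb and Sftpc were 0.26, 0.04 and 0.08.

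The genes most like each member among the 13112 tested were ranked by the same measure. For Sftpc they were Myl4, an atrial myosin light chain on the heart muscle list, and Exosc7, both at 0.99, Hc at 0.98, and Etv5 and Bex4 at 0.97. With each genotype's mean removed these were 0.91 for Myl4, 0.93 for Exosc7, 0.80 for Hc, 0.76 for Etv5 and 0.88 for Bex4. For Sftpb they were Lpcat1, the acyltransferase of surfactant phosphatidylcholine, Rbpjl and Hoxb3 at 0.98, and Snx25 and Cxcl15 at 0.97. For Sftpa1 they were Cxcl15 and Tmem42 at 0.96, Npw and Slco4c1 at 0.93, and Mid1ip1 at 0.92. For Sftpd they were Mien1 (0.95), Troap (0.93), Setmar (0.92), Ndufa12 and Commd9 (both 0.91), none of which is on a list used here. Type 2 markers stood among the 5 genes most like Sftpc (Hc and Etv5, beside the heart muscle marker Myl4), Sftpb (Lpcat1 and Cxcl15) and Sftpa1 (Cxcl15).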

How the data were processed

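The authors deposited 1 log2 signal for each probe set of each array. That unit follows from the range of the values, and their software and normalization are not given in these sources. Per the labels' protocols, whole-transcript amplification (NuGEN Ovation Pico) started from 50 ng of RNA, followed by biotin labelling. Of 41345 probe sets 23521 had 1 gene symbol and 1814 several; the probe set with the highest mean was kept for each gene. No scanner files were used, so signal above background was not tested, and the number of arrays limits the precision. Genotypes were compared over all 13112 tested genes with limma 3.58.1 in R 4.3.3 (eBayes with a variance trend, two-sided, Benjamini-Hochberg, threshold 0.05), and single values by exact permutation. The fit was tested on simulated data. Intervals of within-array differences use the pooled SD. Named genes were the members, Pnpla2, up to 4 genes per list by smallest p, the 5 genes most like each member, and cell type markers. The members and lists were chosen with earlier results of these data known. Replicate numbers follow accession order. Alternatives covered filter, variance prior, scaling, array weights, probe set choice, covariates and each array left out. Figures used matplotlib 3.10.9.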

Additional observations from a re-analysis of the deposited data

Results flagged for a closer look

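In 86 groups of 4 pools, 5 had 1 pool far from the other 3 for its group's range, where chance gives about 1 in 20. In wt/cTg replicate 4 Adgrf5 was at 10.13, against 9.59 to 9.64 in the remaining control pools, and Itm2b at 11.59, against 11.46 to 11.48. In wt/cTg replicate 1 Sfta2 was at 10.04, against 10.54 to 10.61, and Scgb1a1 at 12.88, against 13.02 to 13.03. In wt/cTg replicate 3 Csf2ra was at 7.49, against 7.39 to 7.40. None of the surfactant protein genes had such a pool in either genotype.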

How the results depend on the processing

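The labels do not say which pools form a set and carry no replicate numbers, so pools were not paired, and runs of neighbouring mouse numbers were tried as a block instead. The Sftpc difference stayed between -0.46 and -0.37 in all 22 alternatives but passed limma in 9 of them. It missed 0.05 without the variance trend (-0.41, limma adjusted p = 0.221), after quantile normalization (-0.39, 0.0773), with probe sets of several symbols (-0.41, 0.0656), with age (-0.41, 0.0544) or mice per pool (-0.43, 0.222) as a covariate, with neighbouring mouse numbers as a block (-0.38, 0.185) and without Atgl KO/cTg replicates 1 and 2, the extremes of principal component 1 (-0.41, 0.255). Sftpd turned to 0.02 after quantile normalization, 0.0046 with age and 0.0045 with the mouse number block, was at -0.10 with array weights and -0.15 without both end arrays, and ran from -0.08 to 0.08 with each array left out. Sftpb ran from -0.26 to -0.15 and Sftpa1 from -0.18 to -0.09 and passed in none. The count of 13 genes became 7 without the filter or with age, 1 without the trend, after quantile normalization or with mice per pool, 23 with array weights, 5 with several symbols, 3 with the mouse number block, 2 without both end arrays, and 1 to 25 with each array left out. With each array left out, Sftpb minus Sftpa1 ran from -0.11 to -0.06, Sftpc minus Sftpa1 from -0.31 to -0.25, Sftpc minus Sftpb from -0.21 to -0.17 and Sftpd minus Sftpc from 0.32 to 0.49. Psap turned to -0.03 (median centring), -0.06 (mice per pool) and -0.02 (sex-linked score), Smpd1 to -0.01 (median centring), -0.11 (mouse number block) and -0.02 (end arrays), and Aoah to -0.02 (array weights), -0.03 (mice per pool), -0.03 (sex-linked score) and -0.0009 (end arrays). With each array left out Psap ran from -0.05 to 0.03, Smpd1 from -0.08 to 0.15, Aoah from -0.16 to 0.23 and Itm2c from -0.01 to 0.07. The cause of these changes was not tested. With the sex-linked score as a covariate Sftpc was at -0.39 (limma adjusted p = 0.0496). That score and the end arrays were chosen after seeing the data.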
